A study of Mus musculus with 60 samples.

Results

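Skin carcinomas whose p53 label was not mutant were compared between mice that had been resistant and mice that had been sensitive to papillomas. A mouse counted as resistant if it bore under 2 papillomas 20 weeks into the protocol, and as sensitive if it bore over 7. The rule took 10 tumours from 9 resistant mice and 16 tumours from 14 sensitive mice, which is 26 of the 60 tumours and 23 of the 55 mice measured. Tumours labelled p53 mutant were left out because they were unequally spread, with 8 resistant mice and 2 sensitive mice carrying that label. The comparison asks whether carcinomas differ in expression between hosts that made few and hosts that made many papillomas when p53 mutation does not differ between them.

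All mice were FVBBX animals, the offspring of a cross of SPRET/Ei and FVB/N mice that was backcrossed to FVB/N, so that each animal carried its own mixture of alleles. Every mouse had been treated on the back skin with the carcinogen DMBA followed by the promoting agent TPA. Total tumour RNA was hybridised to Affymetrix mouse arrays, and levels are log2 values made with RMA. Tumours of 1 mouse were averaged, and the mouse is the replicate. Resistant mice had 0 to 1 papillomas at 20 weeks (median 0) and sensitive mice 9 to 35 (median 15). The first papilloma appeared after 18 to 28 weeks in the 7 resistant mice with a value and after 8 to 18 weeks in the 14 sensitive mice.

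In this two-stage protocol DMBA gives keratinocytes an activating Hras mutation and TPA expands the mutated cells into papillomas, benign growths of differentiating epidermis. A minority of papillomas progress to squamous cell carcinoma, and some of those lose their epithelial character and become spindle carcinomas. Keratinocytes that leave the basal layer switch from keratins 5 and 14 to a terminal programme that builds the cornified envelope, a shell of cross-linked small proline-rich proteins, loricrin and late envelope proteins, and they switch on other keratins and S100 proteins when stressed or wounded.

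The labels were not balanced in every respect. Histology was squamous cell carcinoma (SCC) for 5 resistant and 9 sensitive mice, spindle carcinoma for 2 and 4, and was not given for 2 and 1. Of the SCCs, 0 of 5 in resistant mice and 7 of 9 in sensitive mice were well differentiated (two-sided Fisher's exact test, p = 0.021, or 0.126 after Benjamini-Hochberg adjustment over 6 labels). The other labels were sex (6 of 9 and 8 of 14 female), agouti coat (7 of 9 and 7 of 14), origin, histology and the tumor_class label, for which the exact p-values lay between 0.228 and 1. Epithelial identity was clear in most tumours. Krt14 lay between 9.49 and 14.06 and Trp63, the transcription factor of stratified epithelium, between 4.00 and 10.42, with a Trp63 median of 9.96 over the 14 SCC mice and 6.48 over the 6 spindle mice. Epcam had medians of 10.89 and 8.08 in the same mice.

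Some arrays stood apart from their labels. The levels of Xist and of 3 genes of the Y chromosome matched the labelled sex on 23 of the 26 arrays. On the other 3, from resistant mice 7 and 8 and sensitive mouse 12, all labelled male, Xist and the Y-linked genes were both present (Xist 8.57 to 10.67). In addition, 2 pairs of arrays from different mice were closer to each other than any 2 tumours of 1 mouse. The SD of the log2 differences over genes was 0.333 between resistant mouse 7 and sensitive mouse 9. It was 0.339 between resistant mouse 4 and the first tumour of resistant mouse 5, which shared a cage. The median over 325 pairs was 0.798. Pairs of tumours from 1 mouse had 0.402 (sensitive mouse 4), 0.998 (resistant mouse 5) and 1.046 (sensitive mouse 14), so only the first of these was closer than the median pair. Results are therefore also given without the 3 arrays of mismatched sex markers (7 resistant and 13 sensitive mice) and without the 4 near-identical arrays (again 7 and 13). RNA integrity also differed. For the Actb control probe sets the 3′ signal exceeded the 5′ signal by a log2 difference of 0.502 to 0.829 (median 0.658) in resistant mice and 0.567 to 2.34 (median 0.828) in sensitive mice (exact permutation test, two-sided, p = 0.00745), while for Gapdh the medians were 0.0561 and 0.0679 (p = 0.375). Its part in the results below was not tested.

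No gene passed an adjusted p of 0.05 between the classes: 0 of 12791 genes tested were called (0%), and the smallest adjusted p was 0.550 (limma, 9 and 14 mice). At an unadjusted p of 0.05 there were 1155 genes, 9.03% of those tested, of which 613 (4.79%) were higher and 542 (4.24%) lower in resistant mice. A SAM-type permutation statistic at a false discovery rate of 5% called 3 genes, of which Aox1 was higher and Prr9 and Rptn were lower in resistant mice. The median difference over all genes was 0.013. The unadjusted count was 2250 without the 3 arrays of mismatched sex markers and 813 without the 4 near-identical arrays, with 0 genes called in both. It fell to 740 without resistant mouse 3 and 754 without resistant mouse 2 and was 1751 without sensitive mouse 12.

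Because no gene was called, the genes of smallest p are given by their levels as a description. Aox1, which encodes an aldehyde oxidase, had a lowest level of 6.39, a median of 7.13 and a highest of 8.22 in resistant mice, and 5.02, 6.21 and 7.02 in sensitive mice. All 9 resistant mice lay above the sensitive median and 8 sensitive mice lay below every resistant mouse, but the classes overlapped. The mean difference of Aox1 was 1.09 ± 0.24 (SE), 2.13-fold, with an adjusted p of 0.550. Mgst2, a microsomal glutathione transferase that can also make leukotriene C4, ranged from 8.91 to 10.41 (median 9.50) in resistant and from 7.57 to 9.43 (median 8.74) in sensitive mice. Its difference was 0.96 ± 0.24, and again all 9 resistant mice lay above the sensitive median. Nrm, which encodes the inner nuclear membrane protein nurim, was 5.77 to 7.08 (median 6.67) in resistant and 5.24 to 6.93 (median 5.85) in sensitive mice, a difference of 0.72 ± 0.18.

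On the lower side, Papss2, which makes the sulphate donor used by sulphotransferases, was 5.08 to 6.47 (median 5.69) in resistant mice and 5.88 to 8.28 (median 6.79) in sensitive mice. All 9 resistant mice were below the sensitive median and 11 of the 14 sensitive mice exceeded the highest resistant mouse. The Papss2 difference was −1.01 ± 0.23, although 1 of its 3 other probe sets had the opposite sign. Ampd3, an AMP deaminase, spanned 5.62 to 7.28 (median 6.66) in resistant and 6.68 to 8.13 (median 7.37) in sensitive mice, a difference of −0.84 ± 0.21. Meis1, a homeobox transcription factor, spanned 3.70 to 5.72 (median 4.83) and 5.10 to 7.10 (median 5.79), with a 2.01-fold lower mean level in resistant mice, and 1 of its 2 other probe sets had the opposite sign. For each of these 6 genes the adjusted p was 0.550.

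**Figure D1:**
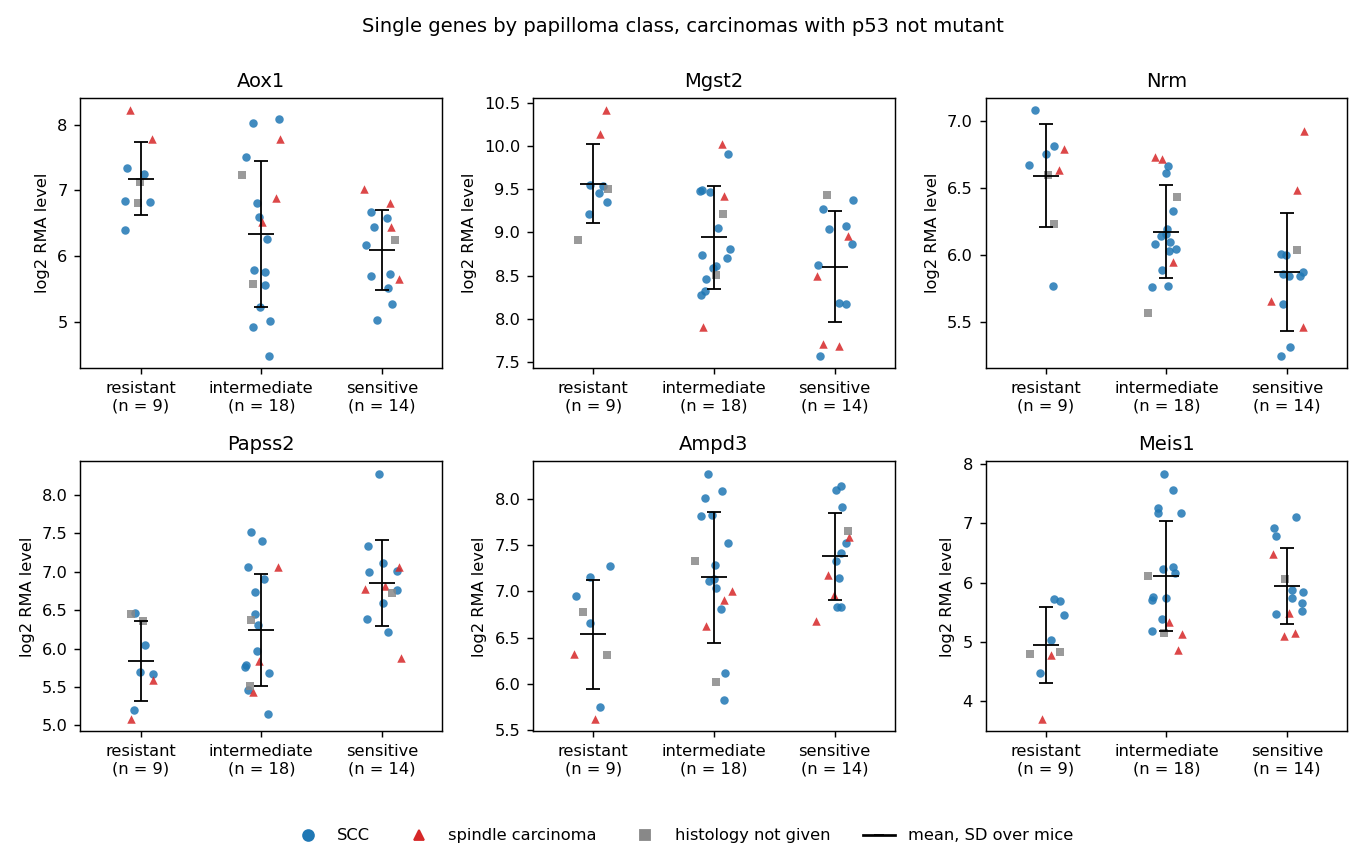
Level (log2 RMA) of Aox1, Mgst2, Nrm, Papss2, Ampd3 and Meis1 in each mouse of the resistant, intermediate and sensitive classes, with the mean and SD over mice and the histology as the symbol. For Aox1 and Mgst2 all 9 resistant mice lie above the sensitive median, for Papss2, Ampd3 and Meis1 all 9 lie below it, and the 2 classes overlap in every panel.

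The other genes of smallest p on the higher side included E2f6, a repressing member of the E2F family (difference 0.51), Rpa3, the smallest subunit of the single-strand DNA-binding complex RPA (0.55), the apoptosis regulator Siva1 (0.44), and Qprt, an enzyme of NAD synthesis (0.44). Tctn2, a protein of the ciliary transition zone, differed by 0.62, Commd10 by 0.58, the GPI transamidase subunit Pigk by 0.42, the glycogen-targeting phosphatase subunit Ppp1r3e by 0.41 and Tmem213 by 0.40. The lower side held the iron exporter Slc40a1 (−0.89), the Cdc42 activator Dock9 (−0.80), Ugcg, which makes the glucosylceramides of the epidermal barrier (−0.63), and the potassium channel tetramerisation domain gene Kctd4 (−1.35). Differences of −0.55 for Slc7a6os, −0.54 for Ccdc59, −0.47 for the kinesin Kif13b, −0.46 for the adaptor subunit Ap1g2 and −0.29 for the Golgi matrix protein Golga2 completed the 12 on that side. All of these had an adjusted p of 0.550.

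Rptn and Prr9, which the SAM-type statistic called, both lie with the genes of the epidermal differentiation complex. Repetin, the product of Rptn, is a protein of the cornified envelope. Rptn was 2.77 to 8.93 (median 5.74) in resistant mice and 4.80 to 11.40 (median 9.01) in sensitive mice, a difference of −2.78 ± 0.86 or 6.88-fold. Prr9 was 3.25 to 5.84 (median 4.55) and 3.84 to 9.69 (median 6.71), a difference of −2.15 ± 0.60. All 9 resistant mice were below the sensitive median for both genes, and 8 sensitive mice for Rptn and 10 for Prr9 exceeded the highest resistant mouse. These 2 genes were chosen after their values were seen, and limma gave both an adjusted p of 0.550.

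Genes of epidermal differentiation lay lower in carcinomas of resistant mice. Of 35 tested members of the suprabasal and cornified envelope list, 34 had a lower mean in resistant mice, with a median difference of −1.30 against 0.013 over all genes. At the unadjusted p of 0.05, 12 were lower and 0 higher, against 4.24% and 4.79% of all genes, and 0 passed after adjustment. The mean of the list per mouse was 5.95 to 8.90 (median 6.79) in resistant and 5.87 to 9.76 (median 8.95) in sensitive mice, so the highest sensitive mice exceeded every resistant mouse while the lowest values of both classes were alike. Flg, which encodes the filament-aggregating protein filaggrin, was 2.47 to 7.25 (median 5.21) in resistant mice and 4.01 to 9.59 (median 7.31) in sensitive mice. Its difference was −1.74, and all 9 resistant mice lay below the sensitive median. The late envelope gene Lce1f differed by −1.89, the protease inhibitor gene Spink5 by −1.87 and the envelope precursor Sprr1b by −1.70, with adjusted p-values of 0.550 to 0.553.

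Stress keratins and genes of activated epidermis behaved similarly, with all 14 tested members lower in resistant mice and a median difference of −1.29. At the unadjusted p of 0.05, 8 were lower and 0 higher, against 4.24% and 4.79% of all genes. Gjb2, the connexin of wounded and hyperproliferative epidermis, was 5.50 to 11.10 (median 7.54) in resistant and 5.73 to 12.78 (median 10.82) in sensitive mice, a difference of −2.35. Sprr2f differed by −2.61, Sprr2i by −2.20 and Sprr2h by −2.19. The Sprr2 genes are near-identical copies, and their probe sets may share signal. The per-mouse mean of the list was 7.10 to 11.48 (median 9.89) in resistant mice and 6.91 to 12.27 (median 11.42) in sensitive mice. In bulk tumour RNA, fewer cells of a type and less RNA per cell cannot be told apart.

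The basal and adhesion programmes followed with smaller differences. All 12 basal keratinocyte genes had a lower mean in resistant mice (median −0.91), with 0 at the unadjusted p of 0.05. The largest was Dst, a linker of hemidesmosomes to keratins, at −1.35, although 2 of its 3 other probe sets had the opposite sign. The basal list mean per mouse had nearly equal medians, 10.2 in resistant and 10.4 in sensitive mice. Resistant mice 2, 3, 4 and 5 had 6.63 to 8.82 and the other resistant mice 10.2 to 10.6. Sensitive mice had 6.42 to 11.08. Of 27 epithelial adhesion genes 23 were lower (median −0.75), and 1 of them, the epithelial transcription factor Ovol1, was at the unadjusted p of 0.05 with a difference of −1.23. The adhesion list mean was 5.91 to 9.42 (median 8.82) in resistant and 5.81 to 9.54 (median 8.89) in sensitive mice. The mucosal keratin Krt13 ranged from 3.44 to 13.08 in resistant and from 3.52 to 12.81 in sensitive mice, with medians of 5.21 and 9.36. Hair follicle genes had a median of −0.06, and Tchh, which encodes trichohyalin of the inner root sheath, differed by −1.38.

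These list values moved with the doubted arrays. Without the 4 near-identical arrays the medians were −1.39 for the cornified envelope (6 of 35 lower at the unadjusted p of 0.05, against 3.36% of all genes), −1.17 for stress keratins (5 of 14), −0.54 for basal genes and −0.38 for adhesion genes. Without the 3 arrays of mismatched sex markers they were −1.63 (21 of 35, against 9.33% of all genes), −1.96 (13 of 14), −1.64 and −1.40. With the tumor_class label, whose meaning the sources used here do not give, as a covariate they were −0.91, −0.81, −0.22 and −0.12, and with histology and grade as covariates −1.06, −1.45, −1.30 and −0.96. No resistant SCC was well differentiated, so the 7 well differentiated sensitive SCCs could not inform the class difference in the fit with grade. Its SCC part rested on 1 moderately and 1 poorly differentiated sensitive SCC against the resistant ones. The mice came from 17 cages, of which 3 held both classes (3 resistant and 4 sensitive mice). Histology was not matched within them. Resistant mouse 2 bore a spindle carcinoma and its cage mates, sensitive mice 8 and 9, bore well differentiated SCCs. With cage as a fixed block, which compares those mice only, the medians were −0.71 (1 of 35 lower and 1 higher at the unadjusted p of 0.05, against 5.21% and 2.36% of all genes), −1.92 (6 of 14 lower), −1.39 and −1.23.

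**Figure D2:**
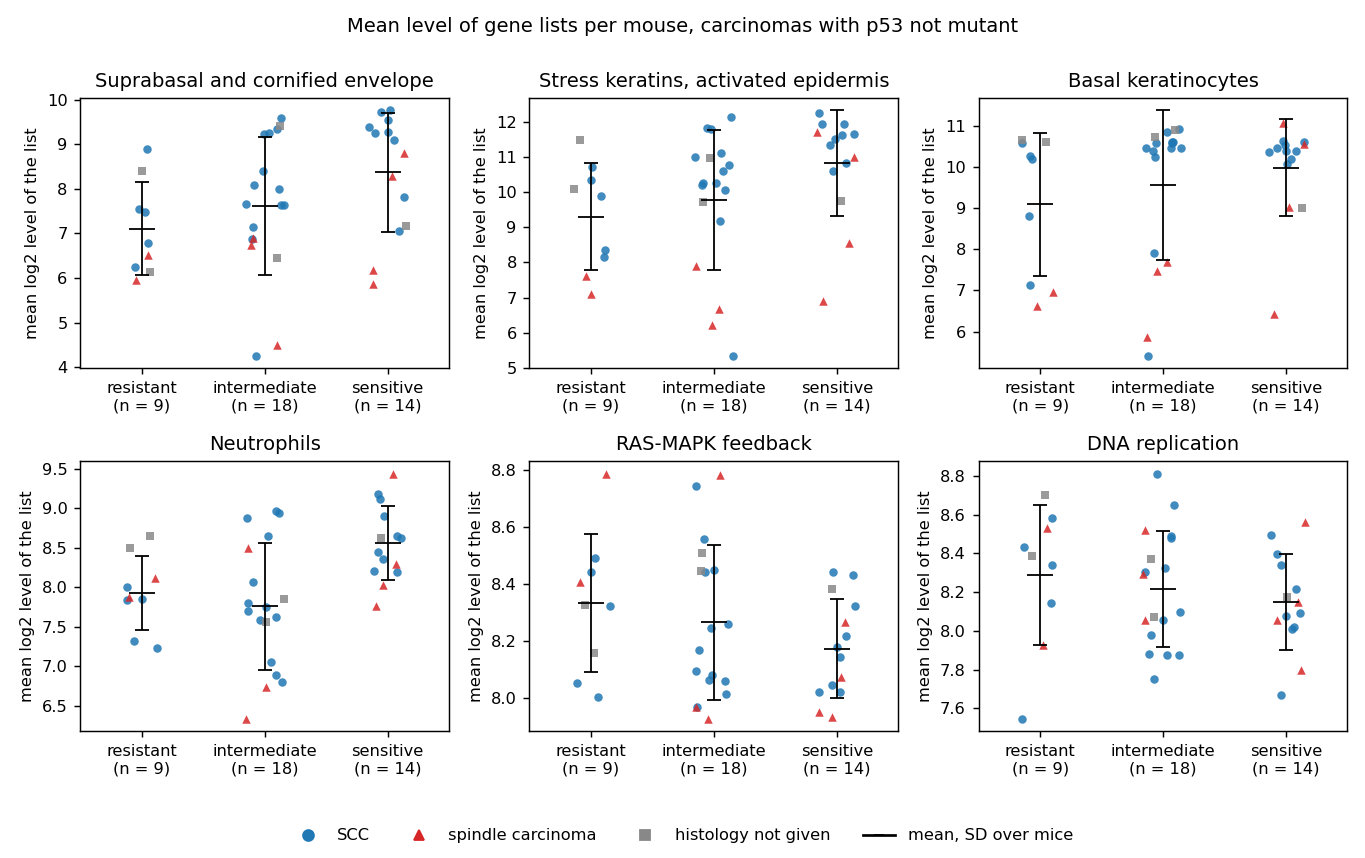
Mean log2 level of 6 gene lists in each mouse of the resistant, intermediate and sensitive classes, with the mean and SD over mice and the histology as the symbol. For the cornified envelope the resistant median is 6.79 and the sensitive median 8.95, while the lowest mice of both classes are alike.

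Lipid synthesis genes, which also serve the epidermal barrier, had 10 of 11 members lower in resistant mice (median −0.28). At the unadjusted p of 0.05, 5 were lower, against 4.24% of all genes. These included Dgat2, a triglyceride synthase (−0.97), the sterol enzymes Hmgcs1 (−0.66) and Sqle (−0.59), and the fatty acid synthase gene Fasn (−0.46). Receptors and ligands of the EGF family had a median of −0.50 over 8 members. The ligand Epgn was 4.42 to 9.38 (median 7.33) in resistant and 5.52 to 9.91 (median 8.39) in sensitive mice, a difference of −1.35. The receptor Egfr differed by −0.41 on its brightest probe set, with 5 of its 6 other probe sets of opposite sign, and its difference was 0.009 when all probe sets were averaged.

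Genes that report on RAS and MAPK signalling pointed the other way in part. Of 16 feedback and output genes 4 were higher and 1 lower at the unadjusted p of 0.05 (median 0.21). Over all genes 4.79% were higher and 4.24% lower at that p. Etv5, an ETS factor induced by the pathway, was 6.17 to 8.07 (median 7.10) in resistant and 6.14 to 6.95 (median 6.48) in sensitive mice, a difference of 0.65, and 8 of 9 resistant mice exceeded the sensitive median. The pathway inhibitors Spry1 and Spred2 differed by 0.72 and 0.46, the latter with 1 of 4 other probe sets of opposite sign, and Phlda1 by −0.64. Without the 4 near-identical arrays 5 members were higher and 0 lower (median 0.23, against 2.99% of all genes higher). Without the 3 mismatched arrays 4 were higher and 2 lower (median 0.28, against 8.26% higher). Within SCC 2 were higher and 2 lower (median 0.07, against 4.56% and 5.93% of all genes). Among 14 core components 3 were higher and 1 lower over all histologies, against the same 4.79% and 4.24% of all genes. They were the RAS inhibitor Nf1 (0.39), the adaptor Shc1 (0.35), the kinase Mapk9 (0.32) and the exchange factor Sos1 (−0.30). Of these, Nf1 and Sos1 had other probe sets of opposite sign.

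Proliferation genes differed little. Of 19 DNA replication genes 3 were higher in resistant mice at the unadjusted p of 0.05 (median 0.12), against 4.79% of all genes. They were the helicase subunit Mcm6 (0.47, with 1 of 2 other probe sets of opposite sign), E2f1 (0.44) and Gins2 (0.37). E2f1 spanned 5.71 to 7.09 (median 6.18) in resistant and 5.42 to 6.44 (median 5.80) in sensitive mice. Without the 4 near-identical arrays 0 replication genes were at that p. For mitosis genes 23 of 26 were higher, with a median of 0.15, and 0 were at the unadjusted p of 0.05. The largest was Foxm1, a mitotic transcription factor, at 0.51.

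All tumours here carried the p53 label not mutant. Among 26 p53 target genes 4 were lower and 1 higher in resistant mice at the unadjusted p of 0.05 (median −0.04). Over all genes 4.24% were lower and 4.79% higher at that p. The lower ones were Plk2 (−0.70), the repair nuclease Ercc5 (−0.51), the antiproliferative gene Btg2 (−0.50) and the metabolic regulator Tigar (−0.44). The other probe sets of Plk2 and Ercc5 had the opposite sign.

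Markers of other cells were described in the same way. Neutrophil genes had all 13 tested members lower in resistant mice (median −0.58). At the unadjusted p of 0.05, 3 were lower, against 4.24% of all genes. The list mean was 7.23 to 8.65 (median 7.87) in resistant and 7.76 to 9.44 (median 8.53) in sensitive mice. S100a8 was 10.36 to 12.99 (median 12.18) and 11.45 to 13.55 (median 13.04), a difference of −0.86, and S100a9 differed by −0.80. Activated keratinocytes also make both proteins of this pair, and the genes stand in the stress keratin list too. Mmp8, a collagenase of neutrophil granules, differed by −1.17. Without the 4 near-identical arrays the median was −0.47, with 3 of 13 at that p, against 3.36% of all genes. In the 18 intermediate mice the list mean was 6.33 to 8.96, and its median of 7.72 lay below that of the resistant mice. Among them the slopes per unit of log2(papillomas + 1) were −0.07 for S100a8, −0.08 for S100a9 and −0.38 for Mmp8. These are opposite in sign to the class difference. Mast cell genes were higher for 7 of 11 members (median 0.08), although the 1 member at that p, the histidine decarboxylase Hdc, differed by −0.68. The adipocyte fatty acid binding protein Fabp4 differed by −1.12, and the endothelial genes Vwf and Tie1 by −0.60 and −0.56. Striated muscle genes, which mark underlying muscle in the sample, were lower for 15 of 16 members (median −0.45). Their list mean per mouse had nearly equal medians, 6.51 in resistant and 6.54 in sensitive mice. It reached up to 6.86 in resistant and up to 10.08 in sensitive mice. The part of other cell types in these differences was not tested.

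Macrophage genes had a median of 0.18 over 16 members with 0 at the unadjusted p of 0.05, the largest being the complement gene C1qc (0.58). MHC class II genes were higher for 7 of 8 members (median 0.31), with H2-DMb2 at 0.53. Dendritic and Langerhans cell genes were higher for 4 and lower for 4 of 8 members (median −0.03), with the lectin gene Cd209a, at 0.46, the 1 member at the unadjusted p of 0.05. The interferon-induced Rsad2 differed by 0.85, the largest of 22 interferon response genes, of which 13 were higher and 9 lower (median 0.02). Erythroid genes Alas2 and Slc4a1 differed by 1.65 and 0.74. IL1-mediated inflammation genes had 23 of 27 members lower (median −0.23) with 0 at that p, the largest being the cytokine Tslp at −1.05. Fibroblast genes had a median of −0.16 and Col1a1 a difference of −0.63. Of 18 TPA-responsive genes 14 were lower (median −0.15). At the unadjusted p of 0.05 the collagenase Mmp13 (−1.38) and the AP-1 subunit Junb (−0.42) were lower, while Plau, the urokinase gene, was higher by 1.76, the largest difference of that list. The glucose transporter Slc2a1 differed by −0.46, the glutathione synthesis gene Gclc by 0.49 and the mesenchymal factor Twist1 by 0.50. Their lists had medians of −0.11 over 19 hypoxia and glycolysis genes, 0.002 over 17 detoxification genes and 0.12 over 22 mesenchymal genes. Over all genes 4.79% were higher and 4.24% lower at the unadjusted p of 0.05. None of the genes named in this paragraph passed the adjusted test.

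**Figure D3:**
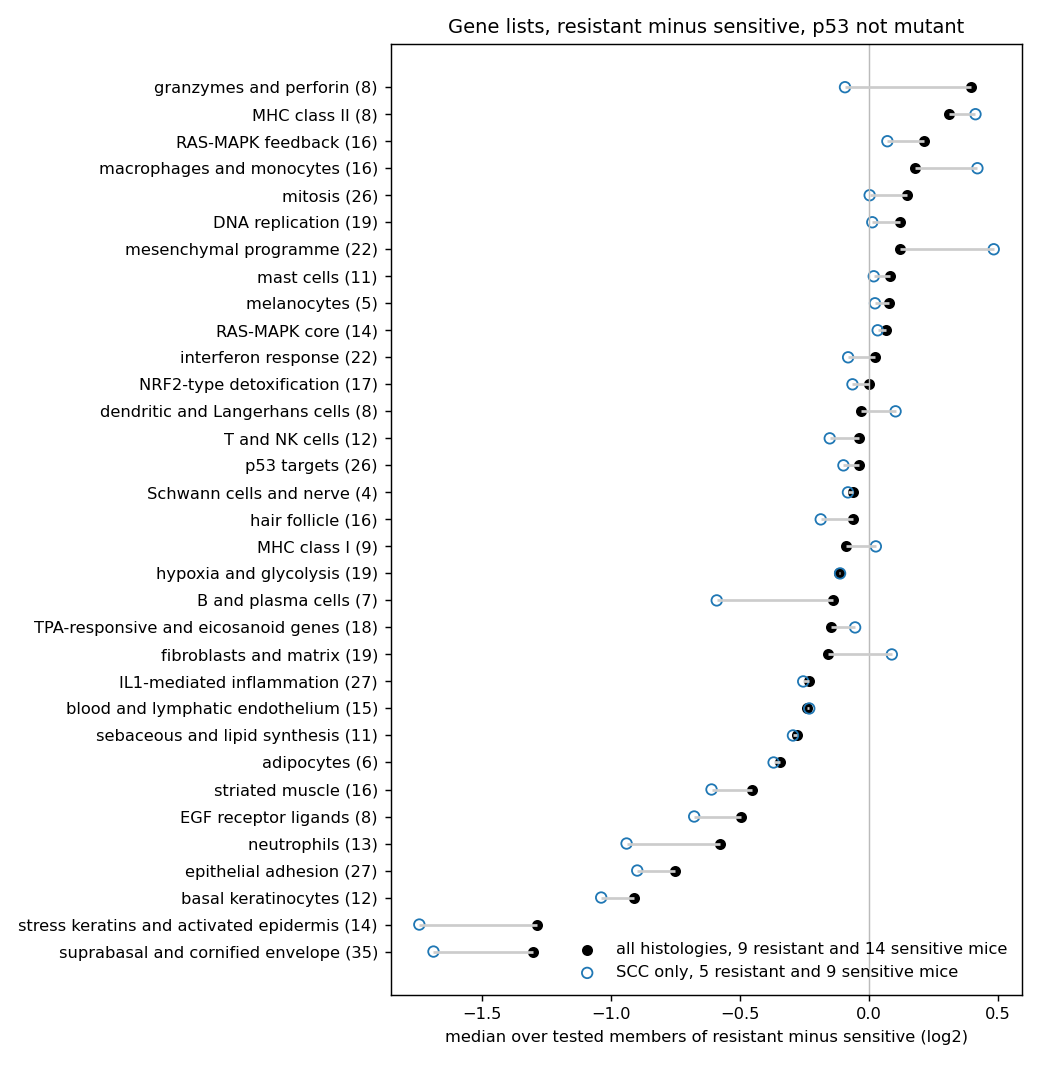
Median over tested members of the resistant minus sensitive difference (log2) for each gene list with 4 or more tested members, over all histologies (filled) and within SCC (open), with the number of members in brackets. The lists of the cornified envelope, stress keratins, basal keratinocytes, adhesion and neutrophils lie lowest, and the median over all genes is 0.013 for both sets of mice.

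Genes that the study had discussed from papillomas or carcinomas were looked at by name. Gzme, one of the granzymes of cytotoxic lymphocytes, was 4.83 to 11.21 (median 8.57) in resistant and 3.75 to 11.20 (median 6.17) in sensitive mice. Its difference of 1.87 ± 0.87 had an adjusted p of 0.550, 8 of 9 resistant mice exceeded the sensitive median, and Gzme has near-identical paralogs that may share signal. Of the 8 granzyme and perforin genes, 7 were higher in resistant mice (median 0.40) and Gzme alone was at the unadjusted p of 0.05. Within SCC 4 of the 8 were higher and 4 lower (median −0.09). Spry2 differed by 0.44 on its brightest probe set and by 0.63 on its other, dimmer one, which is the one the study listed. Map2k4 differed by −0.24 (its other probe set had the opposite sign) and the cell cycle gene Ccnd1 by 0.39. The stem cell receptor Lgr5 differed by −0.26 (its other probe set had the opposite sign) and Il18 by 0.11. On their brightest probe sets, Spry2 and these genes had limma adjusted p-values from 0.578 to 0.927. The direction for Il18 turned without the 4 near-identical arrays (−0.21). The study's papilloma genes of susceptible mice had a median of −0.02 over 20 tested members, and those of resistant mice 0.63 over 4; both lists were picked by the study and are not independent evidence of direction.

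Restricting the comparison to SCC removed the spindle tumours and the tumours without a histology label, and left 5 resistant and 9 sensitive mice. Here 1 of 12791 genes was called (0.00782%). Nabp1, which encodes a single-strand DNA-binding protein of the DNA damage response, was 8.19, 8.07, 8.29, 8.22 and 8.73 in resistant mice 1, 4, 5, 8 and 9, and 9.06 to 9.87 (median 9.42) in the sensitive mice. The 2 classes did not overlap, and the difference was −1.14 ± 0.16 or 2.20-fold (limma adjusted p = 0.0340). The 5 other Nabp1 probe sets had the same sign over all histologies. It held with cage as a random block (0.0435) but not as a fixed block (difference −0.83, 0.634), a fit that rests on 2 cages with 1 mouse of each class. The call was also lost when any of 10 of the 14 mice was left out and without the 4 near-identical arrays (limma adjusted p = 0.313). It was lost too without the mismatched array of resistant mouse 8 (0.195) and with a common 75th percentile (0.0625). In these settings the difference stayed between −1.16 and −1.01.

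At the unadjusted p of 0.05, 583 genes (4.56%) were higher and 758 (5.93%) lower in SCCs of resistant mice. The total of these, 1341, fell to 531 without the 4 near-identical arrays. Leaving out resistant mouse 1 gave 65 called genes and 2175 at the unadjusted p. Leaving out resistant mouse 9 gave 5, which were Nabp1, Nrm, Sprr2d, Sprr2f and Sprr2h, and leaving out sensitive mouse 6 gave Nabp1 and Slfn4. Sprr2f was 9.04, 5.63, 8.59, 7.30 and 11.22 in the resistant mice in the same order and 11.26 to 12.76 (median 12.12) in sensitive mice. The lowest sensitive SCC thus exceeded the highest resistant one, narrowly. The Sprr2f difference was −3.80 ± 0.64 (adjusted p = 0.142), 13.9-fold. Sprr2h differed by −2.87 and the Sprr2j-ps pseudogene by −3.52, with adjusted p-values of 0.144 and 0.142.

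The Sprr2 genes lie next to each other, and their promoters are shown because these members were among the largest differences between the SCCs. RefSeq gives 1 start site each for Sprr2f, Sprr2h and Sprr2i on the plus strand (GRCm38.p6). The 250 bases before the start are at chr3:92364937-92365186 for Sprr2f, chr3:92385435-92385684 for Sprr2h and chr3:92407741-92407990 for Sprr2i. Capitals mark TGANTCA, the letters of an AP-1 type element, and ATGCAAAT, those of an octamer element, each searched on both strands and printed here 5′ to 3′ on the gene's strand.
Sprr2f: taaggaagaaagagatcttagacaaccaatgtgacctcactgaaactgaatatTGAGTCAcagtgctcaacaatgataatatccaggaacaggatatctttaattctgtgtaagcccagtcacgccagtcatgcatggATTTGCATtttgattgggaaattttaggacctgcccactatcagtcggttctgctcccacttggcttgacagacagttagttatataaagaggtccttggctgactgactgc
Sprr2h: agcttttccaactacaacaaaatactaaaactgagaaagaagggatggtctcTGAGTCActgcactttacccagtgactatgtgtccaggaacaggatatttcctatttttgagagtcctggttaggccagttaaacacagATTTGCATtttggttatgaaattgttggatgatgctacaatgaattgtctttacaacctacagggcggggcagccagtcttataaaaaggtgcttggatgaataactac
Sprr2i: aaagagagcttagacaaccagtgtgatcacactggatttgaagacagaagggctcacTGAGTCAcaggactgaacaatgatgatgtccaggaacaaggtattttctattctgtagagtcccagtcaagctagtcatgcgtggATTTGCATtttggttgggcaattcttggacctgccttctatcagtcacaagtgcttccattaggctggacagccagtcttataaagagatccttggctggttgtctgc
The AP-1 type letters begin 197, 198 and 193 bases before the start and the octamer letters 112, 109 and 108 bases before it. All 5 tested Sprr2 genes with a promoter in the table held both, whereas TGANTCA was in 6.75% and ATGCAAAT in 1.6% of 32851 windows of that length. Because the Sprr2 genes are near-identical copies, these 5 promoters are not independent, and their count cannot be read as an enrichment over the other windows. A match of letters is a description of the sequence and not evidence of a site in use.

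Other genes differed between the SCCs of the 2 classes by more than most without passing the test. Plau, the urokinase plasminogen activator of invading epithelium, was 8.48, 8.94, 9.51, 9.30 and 8.80 in resistant mice 1, 4, 5, 8 and 9 and 4.51 to 8.22 (median 5.93) in sensitive mice. The classes did not overlap, with a difference of 2.78 ± 0.57 or 6.86-fold (adjusted p = 0.144). Cd109, a GPI-anchored co-receptor for TGF-beta, was 8.64, 9.18, 8.62, 8.43 and 7.64 and 6.04 to 7.93 (median 6.87), a difference of 1.58 ± 0.33 with overlap in the mouse of lowest value. Over all histologies Plau differed by 1.76 and Cd109 by 1.14, and resistant mice 3, 6 and 7, none of them labelled SCC, had Plau values of 4.73, 4.78 and 6.02, within the sensitive range, while the spindle carcinoma of resistant mouse 2 had the highest value of all, 11.51. The bHLH factor Msc differed by 1.12 within SCC, the nucleoside transporter Slc29a1 by 2.03, Nrm by 0.88 and the glycosyltransferase Galnt2 by 0.52. On the lower side were Slfn4, a schlafen family gene (−1.40), and Mcemp1 (−0.95), with adjusted p-values of 0.142 and 0.144.

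Grade and class were hard to separate within SCC, since 7 of the 9 sensitive SCCs and 0 of the 5 resistant SCCs were well differentiated. The sensitive mice with a moderately and a poorly differentiated SCC had Nabp1 levels of 9.51 and 9.42, Sprr2f levels of 12.65 and 11.81 and Cd109 levels of 6.85 and 6.14. Each of these lay on the sensitive side of every resistant SCC, but the 3 genes were among those chosen for their difference between the same mice. For other genes the poorly differentiated one lay among the resistant SCCs, with Slc29a1 at 7.15 against 6.69 in resistant mouse 1, Sprr2i at 10.10 against 11.67 and Sprr1b at 12.14 against 12.34. For Plau they were 8.22 and 5.93, against 8.48 in the lowest resistant SCC. With 5 resistant and these 2 sensitive mice 0 genes were called, the smallest adjusted p was 0.0559 and 512 genes were at the unadjusted p of 0.05.

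**Figure D4:**
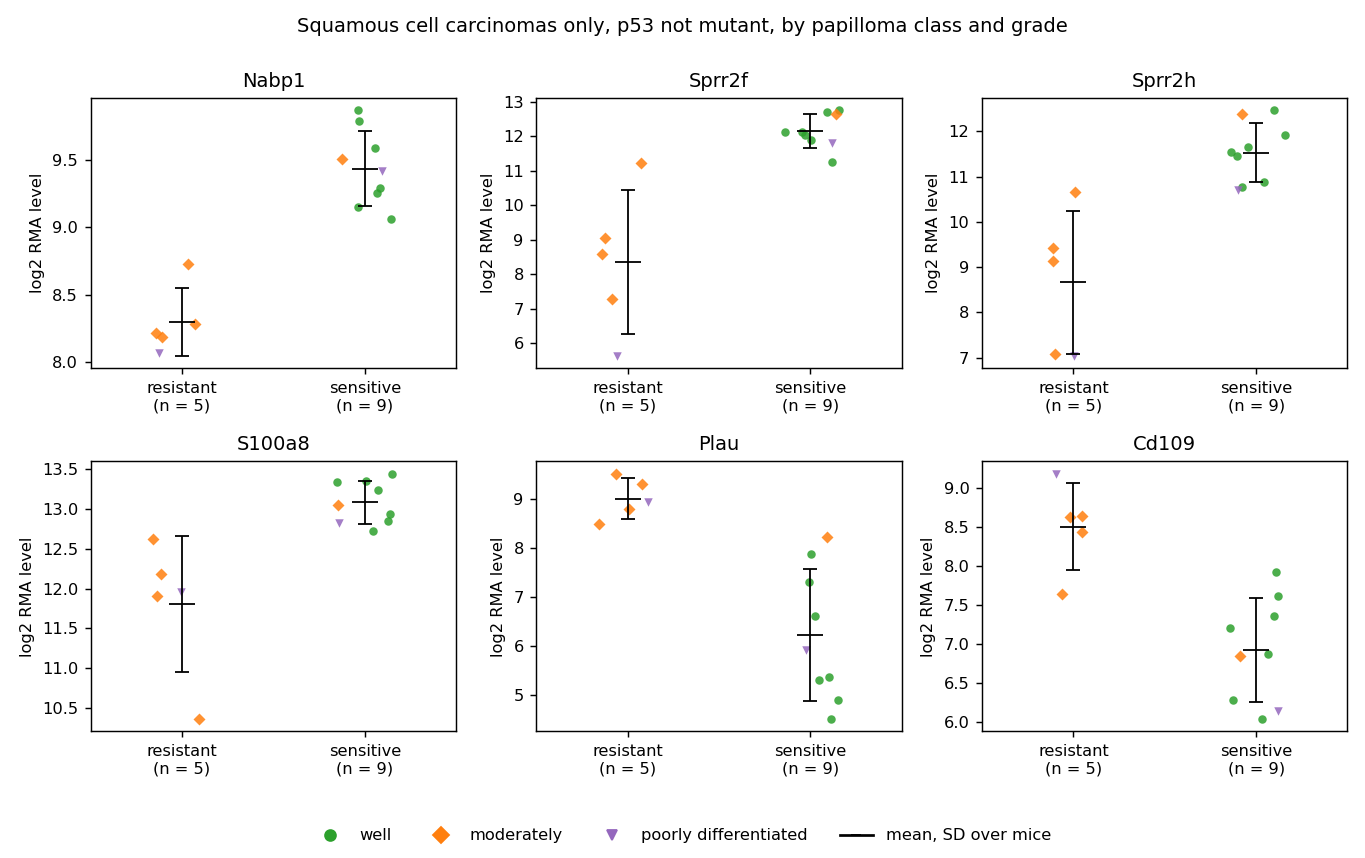
Level (log2 RMA) of Nabp1, Sprr2f, Sprr2h, S100a8, Plau and Cd109 in SCCs of 5 resistant and 9 sensitive mice, with the mean and SD and the grade of differentiation as the symbol. The well differentiated tumours are all in sensitive mice, and the 2 other sensitive SCCs lie with them for Nabp1, Sprr2f and Cd109.

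Within SCC the epidermal lists differed by more than over all histologies. The cornified envelope median was −1.69 with 19 of 35 lower at the unadjusted p of 0.05, and the stress keratin median −1.74 with 12 of 14 lower, against 5.93% of all genes. Without the 4 near-identical arrays (4 resistant and 8 sensitive mice) these were −1.26 with 9 of 35 and −1.27 with 8 of 14, against 2.38% of all genes. Without the mismatched array of resistant mouse 8 they were −1.30 with 12 of 35 and −1.70 with 12 of 14, against 6.48% of all genes. Basal and adhesion genes had medians of −1.04 and −0.90, but −0.07 and 0.05 without the 4 near-identical arrays and −1.24 and −1.18 without the mismatched array. Leaving out resistant mouse 4 alone gave −0.43 and −0.37. With cage as a fixed block, over 2 resistant and 2 sensitive SCCs, the medians were 0.65 for the cornified envelope, the opposite direction (5 of 35 higher and 0 lower at the unadjusted p of 0.05, against 1.81% and 4.6% of all genes), −0.32 for stress keratins, 0.07 for basal and 0.20 for adhesion genes. The adhesion list mean in resistant SCCs reached down to 5.96 (median 8.82), against 8.50 in the lowest sensitive SCC (median 9.04). For basal genes the list mean had medians of 10.2 in resistant and 10.4 in sensitive SCCs. Neutrophil genes had a median of −0.94 with 7 of 13 lower, or −0.68 with 4 of 13 without the near-identical arrays, and S100a8 and S100a9 differed by −1.28 and −1.22 with no overlap of the classes. Mesenchymal and macrophage genes had medians of 0.48 and 0.42.

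The 18 intermediate mice with p53 not mutant, which had 2 to 7 papillomas, gave a separate set in which the same question could be asked as a slope per unit of log2(papillomas + 1). Again 0 of 12791 genes were called (0%), with a smallest adjusted p of 0.418 and 1149 genes at the unadjusted p of 0.05. For Aox1 the slope was −0.94 ± 0.45 per unit, for Dock9 0.49 ± 0.19 and for E2f6 −0.26 ± 0.12, the same direction as between the classes. For Mgst2 it was 0.05 ± 0.27 and for Papss2 0.06 ± 0.33. In this fit, without a histology covariate, cornified envelope genes had slopes of 0.96 (Lce1f), 1.78 (Spink5), 1.34 (Flg) and 1.94 (Sprr1b). Those of stress keratin list genes were 1.80 (Sprr2f), 1.83 (Gjb2), 1.99 (Sprr2i) and 1.88 (Sprr2h). These had the direction of the class difference, unlike S100a8 (−0.07) and S100a9 (−0.08) of the same list. Every intermediate mouse with 2 papillomas had a poorly differentiated SCC or a spindle carcinoma, and no mouse with 7 did. In these slopes papilloma number therefore cannot be told apart from histology and grade. For Plau the slope was 0.27, opposite to its class difference. For Slc40a1 it was −1.05 ± 0.41, opposite to the class difference, in which resistant mice were lower. For Gzme, which was higher in resistant mice, the slope of 0.92 ± 0.96 was also of opposite direction and within its error. Over all 41 mice with p53 not mutant 0 genes were called and the smallest adjusted p was 0.496.

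**Figure D5:**
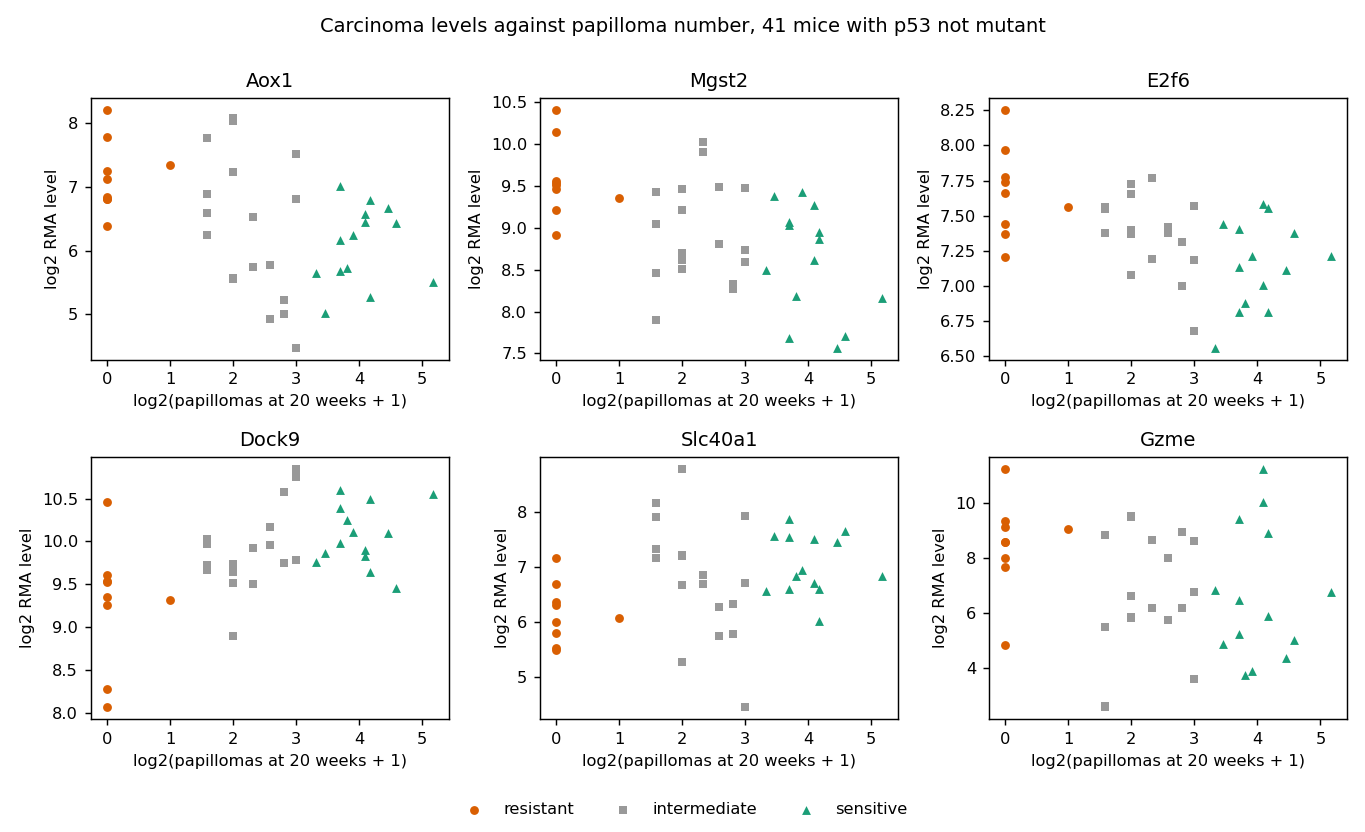
Level (log2 RMA) of Aox1, Mgst2, E2f6, Dock9, Slc40a1 and Gzme against log2(papillomas at 20 weeks + 1) in 41 mice with p53 not mutant, coloured by class. Slc40a1 has a slope of −1.05 among the 18 intermediate mice, while its median is higher in sensitive than in resistant mice, and no gene passed the adjusted test.

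Whether the class difference depended on the p53 label was tested as an interaction with the 8 resistant and 2 sensitive mice labelled p53 mutant. No gene was called (0 of 12791, 0%), the smallest adjusted p was 0.539, and 425 genes, 3.32%, were at the unadjusted p of 0.05. The interaction was −1.23 ± 0.57 for Aox1 and −0.86 ± 0.27 for E2f6, whose class differences in p53 not mutant mice were 1.09 and 0.51, and −0.12 ± 0.49 for Mgst2 and −0.06 ± 0.50 for Papss2. With 2 sensitive mice labelled mutant these values have wide errors. Adding the p53 mutant mice to the class comparison with the label as a covariate also gave 0 called genes, with a smallest adjusted p of 0.187.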

How the data were processed

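The values the authors deposited are log2 levels of each probe set from RMA (version not given in the sources used here), a method that corrects background, quantile-normalises arrays together and summarises each probe set. A shift of most genes in 1 class would therefore be removed. Array medians lay between 4.43 and 4.56, and the number of arrays limits the precision. Of 45101 probe sets, 34958 had 1 gene symbol in the platform annotation, 932 several and 9211 none, and symbols were updated through RefSeq (GRCm38.p6, 34754 matched). Where a gene had more than 1 probe set (9012 genes), that of highest mean over all 60 arrays was used. Of 18194 genes, the 12791 that exceeded an array's median on 8 or more arrays were tested. Promoter sequences came from the same RefSeq build.

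Tumours of 1 mouse were averaged. Classes followed the labels for papillomas at 20 weeks and p53. Differences are resistant minus sensitive, fitted with limma 3.58.1 in R 4.3.3 with no covariate and Benjamini-Hochberg adjustment over all genes tested. P-values measure the spread between mice. Labels were compared with Fisher's exact tests and RNA quality with exact permutation tests in scipy 1.17.1. Figures used matplotlib 3.10.9, and fits were tested on simulated data. Gene lists were described by counts and medians only.

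Named genes are the 12 of smallest p each way between the classes, 6 each way within SCC, up to 4 members of a list at the unadjusted p of 0.05 (or the 1 largest), and genes the study discussed; Rptn, Prr9 and some list members named within SCC were chosen after their values were seen. The members, lists and tests were chosen with earlier results of these data known. Alternatives were other filters, probe set rules, normalisations, statistics, covariates, subsets and papillomas at 24 weeks, and leaving out each mouse. The exclusion of the 4 near-identical arrays, and within SCC of mismatched arrays, and the cage label as a block were chosen after seeing the data.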

Additional observations from a re-analysis of the deposited data

Results flagged for a closer look

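Over 126 groups of 5 or 9 mice, 3 values lay far from the rest of their group, judged by the gap to the nearest mouse over the range of the group. Chance marks about 1 in 20 groups. Among resistant mice, Mcm6 was 8.21 in mouse 9, with the next lowest mouse at 9.06 (gap over range 0.526). Sos1 was 6.43 in mouse 3, with the next at 6.95 (0.525). Col1a1, the main fibrillar collagen gene of dermis and stroma, was 7.65 in mouse 3, a spindle carcinoma, with the next at 10.82 (0.585). None of the 3 genes was called between the classes with any 1 mouse left out (limma).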

How the results depend on the processing

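Over 48 alternatives, 47 kept 0 genes called between the classes and the SAM-type statistic called 3. Leaving out 1 mouse kept 0 called, with 740 to 1751 genes at the unadjusted p of 0.05. Within SCC the call of 1 gene became 0 without the arrays of mismatched sex markers, without the 4 near-identical arrays, with a common 75th percentile and with cage as a fixed block, and leaving out 1 mouse gave 0 to 65. The interaction with p53 called 1 gene, Sele, when no filter on low values was used. The Actb 3′ minus 5′ difference of −0.294 within SCC was past the threshold no longer (exact permutation test, p = 0.0569). The cause was not tested for any of these.

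Of 4618 values of 107 gene results, 15 turned sign, over 9 genes. Egfr was 0.009 with the mean of all probe sets. In SCCs not well differentiated Rsad2 was −0.34, H2-DMb2 −0.18, Lgr5 0.56 and Col1a1 0.64. Il18 was −0.21 without the 4 near-identical arrays, −0.27 with p53 mutant mice added, −0.13 with their label as covariate, and −0.049 to 0.318 when 1 mouse was left out (−0.049 without resistant mouse 4, −0.028 without sensitive mouse 14). Within SCC, without the 4 near-identical arrays, adhesion genes had a median of 0.052 and DNA replication genes −0.019, and leaving out 1 mouse gave −0.079 to 0.204 for DNA replication. With cage as a fixed block, which rests on 3 cages, Twist1 was −0.035, Shc1 −0.023, Rsad2 −0.274, Il18 −0.479, Tslp 0.617 and the DNA replication median −0.008. Within SCC, on 2 cages, the medians were 0.646 for the cornified envelope, −0.32 for stress keratins, 0.07 for basal, 0.196 for adhesion and −0.317 for DNA replication genes, and −0.004 for the last with cage as a random block. No paired analysis was possible because replicate numbers only follow accession order. The number of arrays, not depth, limits precision here.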
